A study of Solanum lycopersicum with 24 samples.

Results

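The genes described here are those whose messenger RNA, in anthers kept at normal temperature, stood highest at the free microspore stage over the stages before and after it. They are 200 of the 35768 genes listed for tomato (Solanum lycopersicum, dwarf cultivar Micro-Tom), chosen from deposited FPKM values, which are reads scaled by gene length and by library total. Of the listed genes, 13318 had a mean of at least 5 FPKM over the control libraries of the free microspore stage. For each of these the score was log2 of the free microspore mean plus 1 over the higher of the tetrad and polarized microspore means plus 1. The 200 highest scores were kept. Only control (CT) libraries entered the choice, so the course of these genes in CT is a description and was not tested.

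The series holds 24 anther libraries, 4 for each of 6 groups. CT plants grew in 50% relative humidity, with days of 25 °C and nights of 19 °C. Plants of the long-term mild heat group (LTMH) were moved when they flowered to days of 34 °C, nights of 28 °C and 68% relative humidity, so that heat and humidity changed together. In both groups the light period was 12 hours, anthers were taken about 5 hours into it, and each library pooled 6 anthers. Tetrad anthers were taken after 4 days, free microspore anthers after 6 days and polarized microspore anthers after 8 days, so stage and duration of heat cannot be told apart within LTMH. No label tells if each library had its own plants, and p-values here measure only the spread between these libraries.

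An anther holds the pollen mother cells and their products inside several layers of wall. After meiosis the 4 products of each mother cell lie together as a tetrad inside a callose wall. When this wall is dissolved they become free microspores, which grow, lay down the outer pollen wall and then become polarized before the first pollen mitosis. The innermost wall layer, the tapetum, feeds the microspores, secretes callose-degrading enzymes and supplies precursors of the outer pollen wall, and it later dies. Pollen development is among the most heat-sensitive steps of the tomato life cycle. A level measured in whole anthers cannot separate fewer cells of a type from less RNA per cell. The files do not pair gene identifiers with names and the reference table matched none of them, so no gene below has a name or role, and markers of the tapetum, the microspores or other cells could not be checked against the stage labels. Reads of near-identical copies and of overlapping genes may have been split or shared in the counting, and the library kit as described does not state that strand was kept.

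Library totals ranged from 15657765 to 22987661 reads. The 200 genes had a median of 4002 reads over the 4 free microspore CT libraries and a lowest value of 79, and all 200 passed the filter on low counts, which left 21429 genes to test. Tetrad CT replicates 1 and 2 were unusually close to each other, with a chi-square per degree of freedom of 4.43 against at least 10.5 for every other pair of libraries within a group. Whether this pair shares a source is not known, so the number of independent tetrad controls may be below 4.

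The scores ran from 0.98 to 3.67 with a median of 1.48. A score of at least 1 was reached by 196 genes, at least 2 by 37 and at least 3 by 4. At the lower end the choice was close. The gene at rank 200 had CT means of 72.5, 36.2 and 1.35 FPKM at the free microspore, tetrad and polarized microspore stage, a score of 0.98. The next gene, just outside, had 60.3, 17.4 and 30.2 FPKM at the same stages and also a score of 0.98. Leaving out any 1 CT library kept 165 to 195 of the 200 genes.

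In CT the median of the 200 gene means was 9.75, 39.4 and 5.62 FPKM in the tetrad, free microspore and polarized microspore groups. Levels at the peak spanned a wide range, from 5.06 to 11743 FPKM with quartiles of 15.1 and 119. At the free microspore stage 172 genes reached 10 FPKM, 55 reached 100 and 11 reached 1000. The gene with the highest level, Solyc02g078330.3 (rank 46, picked out after its values were seen), took 21.4% of the FPKM summed over the 200 genes and all libraries, and the top 5 took 45.8%. Its free microspore CT libraries lay at 12349, 13054, 8241 and 13329 FPKM, against 1573, 1351, 2717 and 7125 in tetrad CT and 2937, 3373, 831 and 612 in polarized microspore CT. Every free microspore CT library was above every other CT library for this gene.

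**Figure D1:**
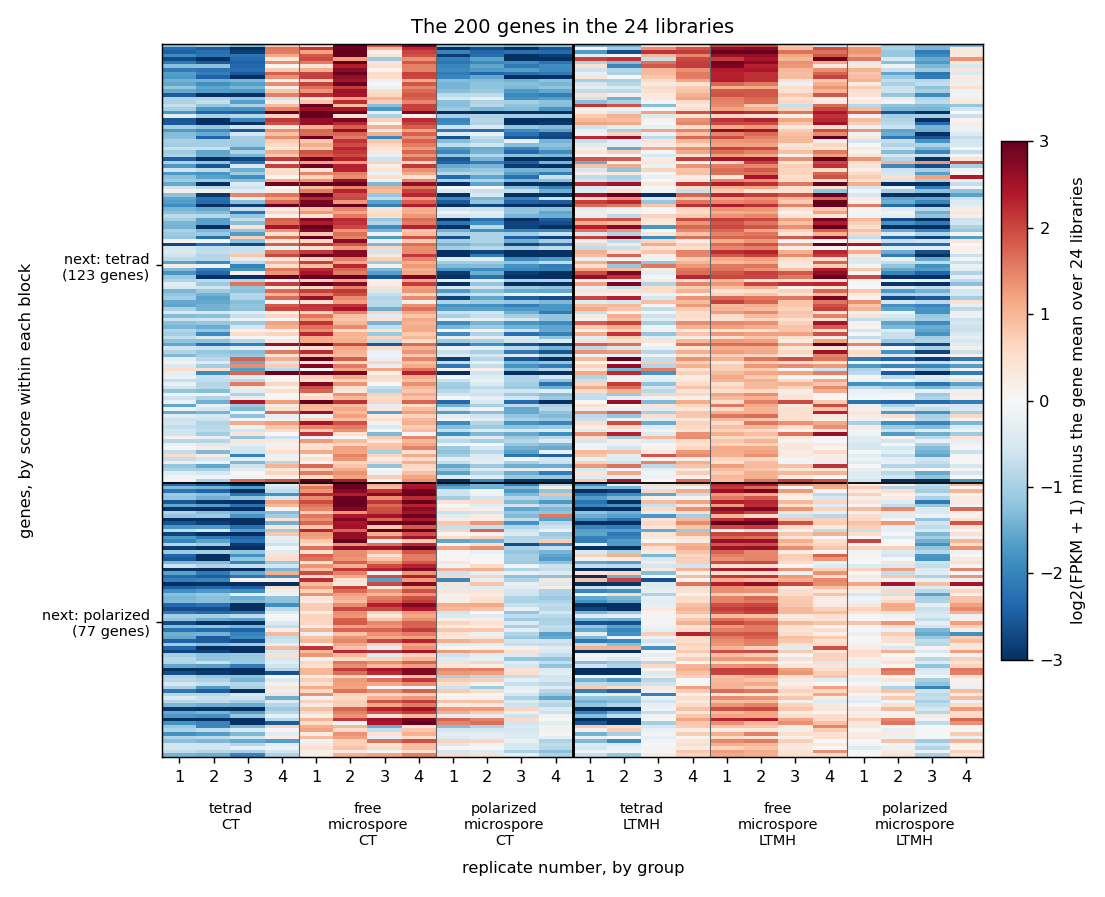
Heat map of the 200 genes (rows) in the 24 libraries (columns, replicates 1 to 4 of each group); colour is log2(FPKM + 1) minus the gene's mean over all libraries, limited to -3 and 3. The upper block holds the 123 genes whose next highest CT stage was the tetrad and the lower block the 77 whose next highest was the polarized microspore; tetrad CT replicate 4 is redder than the other 3 tetrad CT libraries in the upper block.

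The genes fell into a larger and a smaller group by the stage that came second in CT. For 123 genes the tetrad stage was second, with median levels of 10.1, 30.8 and 3.75 FPKM at the tetrad, free and polarized microspore stage. For 77 genes the polarized microspore stage was second, with medians of 9.23, 54.8 and 20.4 FPKM. The tetrad CT means behind this grouping include tetrad CT replicate 4, the highest tetrad CT library for 178 of the 200 genes. For some genes that library alone put the tetrad second. How many genes would change group without it was not tested. Over all 200 genes the median log2 ratio of the free microspore to the tetrad mean was 1.73 in CT, and that to the polarized microspore mean was 2.09.

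The best scoring gene, Solyc06g063060.3, showed the course in its plainest form. Its 4 free microspore CT libraries lay at 21.9, 80.5, 22.0 and 56.1 FPKM, a mean of 45.1 ± 28.5 (SD, n = 4). Tetrad CT libraries lay at 1.12, 0.760, 0.311 and 7.04 FPKM, and polarized microspore CT libraries at 1.59, 2.94, 1.44 and 4.57. The free microspore libraries stood clear of the other stages, which overlapped each other, although those of this gene differed by more than 3-fold among themselves. The next gene by score, Solyc10g008330.3, had free microspore CT values of 8.46, 30.9, 4.92 and 16.5 FPKM and tetrad CT values between 0 and 1.07. Its polarized microspore CT libraries lay at 0.0723, 0.153, 0.278 and 2.57 FPKM, again below every free microspore library.

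Single libraries differed widely for these genes within every group. The median over the 200 genes of the SD of log2(FPKM + 1) among 4 libraries was 0.91 in tetrad CT, 0.77 in free microspore CT and 0.52 in polarized microspore CT, and 0.85, 0.58 and 0.68 in the LTMH groups in the same order. Over all genes with at least 5 FPKM these medians lay between 0.11 and 0.17. Every free microspore CT library exceeded all 8 other CT libraries for 73 of the 200 genes (36.5%, against 1.43% of all tested genes). The choice of the genes used these values, and nothing is read from this count.

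Tetrad CT replicate 4 stood apart from its group in these genes. Its stage label could not be checked against markers, and each tetrad CT mean, score and tetrad heat change given here includes it. The median of log2(FPKM + 1) over the 200 genes was 2.78, 2.38, 2.44 and 4.32 in tetrad CT replicates 1 to 4. It was 5.22, 5.49, 4.32 and 5.45 in free microspore CT and 2.93, 3.30, 2.53 and 2.54 in polarized microspore CT. Tetrad CT replicate 4 therefore reached the level of free microspore CT replicate 3, the lowest of its group. Replicate 4 was the highest of its group for 178 of the 200 genes and at least 2-fold above each other tetrad CT library, on the FPKM + 1 scale, for 105 (52.5%), against 1.19% of all genes with at least 5 FPKM. The 200 genes together took 0.751%, 0.617%, 1.17% and 4.08% of the summed FPKM in these 4 libraries.

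The developmental position of each library was taken from genes outside the 200. Tetrad libraries were placed on the line from the free microspore CT mean (0) to the polarized microspore CT mean (1) over 3244 genes, and tetrad CT replicates 1 to 4 lay at -0.417, -0.439, -0.327 and -0.321. By this measure replicate 4 was close to replicate 3, unlike its level of the 200 genes. The genes of this line were chosen for a change between the free and polarized microspore stages, and tetrad libraries lie outside it. It therefore cannot show how far a tetrad library had moved from the tetrad towards the free microspore stage. Free microspore libraries were placed between the tetrad (0) and the polarized microspore (1) CT means over 6017 genes. The 4 CT replicates lay at 0.343, 0.239, 0.523 and 0.648 and the LTMH replicates at 0.774, 0.430, 0.366 and 0.445. The part of developmental position in the levels of the 200 genes was not tested.

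**Figure D2:**
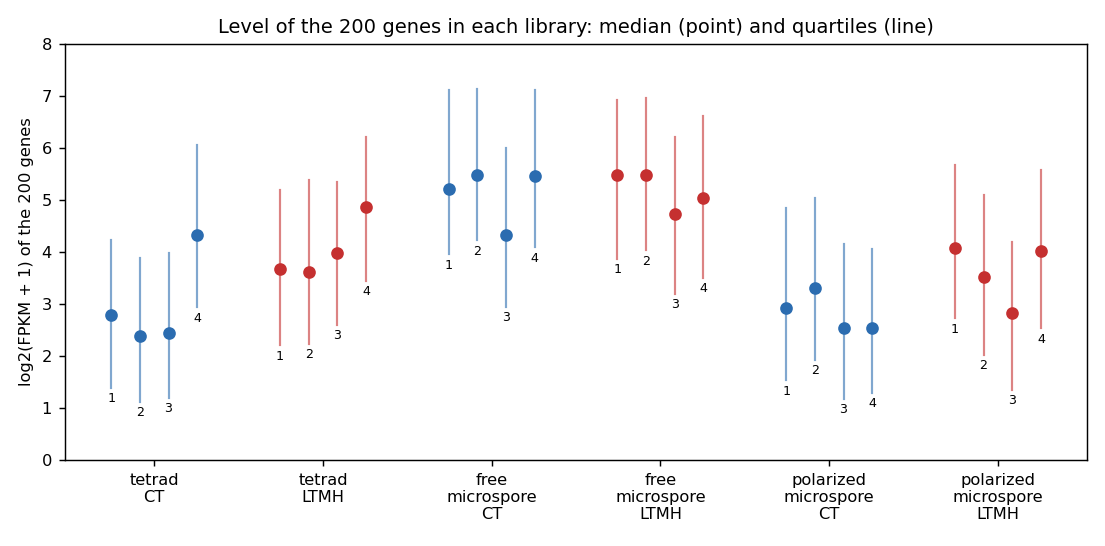
Median (point) and quartiles (line) over the 200 genes of log2(FPKM + 1) in each of the 24 libraries, by group (CT blue, LTMH red), with the replicate number under each line. Free microspore medians lie between 4.32 and 5.49; tetrad CT replicate 4 (4.32) and tetrad LTMH replicate 4 (4.86) lie above the other tetrad libraries.

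In the free microspore CT group no gene was highest in replicate 3, and 118 were lowest there. Its share of summed FPKM in the 200 genes was 4.41%, against 7.84%, 8.08% and 8.34% in replicates 1, 2 and 4. Replicate 1 was highest for 63 genes and lowest for 75, so the replicates did not differ by level alone. For 39 genes a single library held over 50% of the level summed over the 4 free microspore CT libraries. That library was replicate 1 for 23 genes, replicate 2 for 14 and replicate 4 for 2. The groups of 23 and 14 genes were formed after their values were seen and carry no test. The 23 genes had a median log2(FPKM + 1) of 6.18, 4.92, 2.08 and 4.65 in free microspore CT replicates 1 to 4. Their medians in tetrad LTMH were 5.01, 5.63, 2.23 and 4.49, so high and low libraries also lay side by side there. The 14 genes had medians of 4.10, 5.87, 2.88 and 4.39 in free microspore CT and of 1.83, 1.44, 3.57 and 3.65 in tetrad LTMH.

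The LTMH libraries took no part in the choice of the genes, so the course within them is a separate measurement of the same genes. Under LTMH the free microspore stage still had the highest mean for 190 of the 200 genes (95%), against 23.4% of the 13585 genes with at least 5 FPKM in free microspore LTMH. In another 9 genes the tetrad and in 1 the polarized microspore mean was highest. The free microspore level stood less far above the other stages than in CT, however. The same score computed from LTMH means had a median of 0.72, with a lowest value of -0.48 and a highest of 1.71, and it was at least 1 for 53 genes. Over the 13318 genes with at least 5 FPKM in free microspore CT the median score was -0.22 in CT and -0.14 in LTMH.

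The LTMH score was below the CT score for all but 1 of the 200 genes, with a median difference of 0.84, and for 73 genes it was lower by at least 1. By construction, genes chosen for a high score in some libraries have lower scores on average in others, and how much of the difference this makes was not tested. Of the 200 genes 130 (65%) were also among the 200 highest LTMH scores, and 160 were among the 500 highest. In 10 genes the free microspore LTMH mean was under 5 FPKM.

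**Figure D3:**
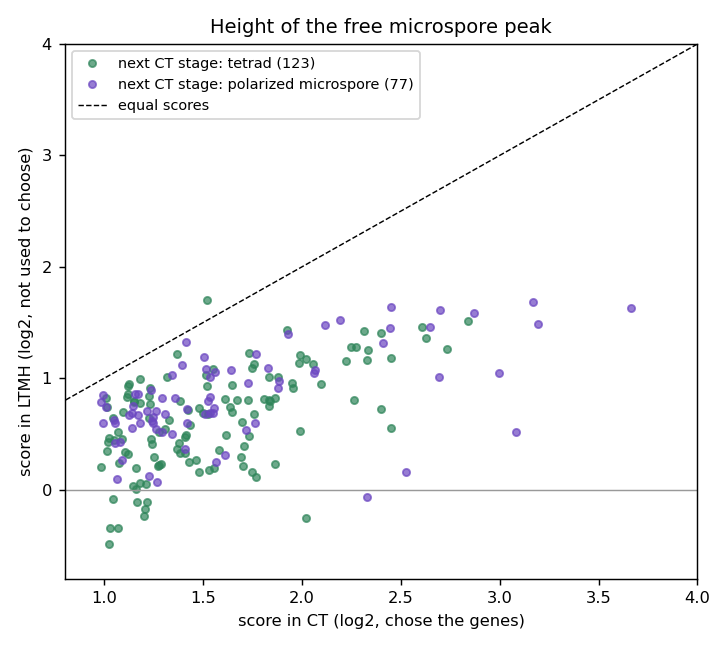
Score of each of the 200 genes in CT (x axis, log2; these values chose the genes) and in LTMH (y axis, log2), coloured by the stage that came second in CT, with a dashed line where both are equal. All points but 1 lie below the line, and most LTMH scores lie above 0, the value at which the free microspore mean equals the higher of the other 2.

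The tests within LTMH called a part of these genes. Between the free microspore and the tetrad stage, 37 of the 200 genes (18.5%) were called higher at the former and 0 lower, against 8.95% of all tested genes called higher and 12.4% lower (edgeR quasi-likelihood test, Benjamini-Hochberg adjusted p below 0.05 over 21429 genes). At an unadjusted p below 0.05, 79 were higher and 0 lower (3713 and 3790 of the 21429 tested genes). DESeq2 called 55 higher (27.5%, against 9.8% of all genes) and 0 lower (against 14%). In limma 59 were called higher (29.5%, against 8.52%) and 0 lower (against 12.3%). The median log2 difference was 0.92 over the 200 genes and 0.03 over all tested genes. The edgeR count of 37 and its excess over all genes rested on single libraries. Without tetrad LTMH replicate 1 it was 5 (2.5%, against 4.36% of all genes called higher in that fit), without replicate 2 it was 9 (4.5%, against 7.14%) and without replicate 3 it was 9 (4.5%, against 3.66%). Without tetrad LTMH replicate 4 it was 62 (31%, against 9.11%). It was 6 (3%) without free microspore LTMH replicate 1 (against 3.67%) and also 6 without replicate 2 (against 5.44%). It was 47 (23.5%, against 9.24%) without free microspore LTMH replicate 3 and 44 (22%, against 7.35%) without replicate 4. In 4 of these fits the share of the 200 genes was therefore below that of all genes, and in the others it was above. The median moved less, between 0.85 and 1.18. Under upper-quartile scaling 50 genes (25%) were called higher against 13.8% of all genes, and 10.8% of all genes were called lower in place of 12.4%.

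Between the free and the polarized microspore stage in LTMH, 77 genes (38.5%) were called higher at the free microspore stage and 0 lower, against 13.9% of all tested genes called higher and 12.1% lower. At an unadjusted p below 0.05, 126 were higher and 0 lower (4361 and 3806 of the 21429 tested genes). DESeq2 called 105 higher (52.5%, against 15.3% of all genes) and 0 lower (against 13.8%). In limma 92 were called higher (46%, against 11.6%) and 0 lower (against 12.5%). The median log2 difference was 1.42, against 0.02 over all tested genes. The edgeR count was 46 (23%) and 41 (20.5%) without free microspore LTMH replicates 1 and 2, against 14.1% and 10.8% of all genes. It was 40 (20%) and 32 (16%) when polarized microspore LTMH replicates 2 and 3 were left out, against 10.5% and 9.09%.

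Both LTMH tests called 10 of the 200 genes (5%), against 0.327% of all tested genes. This joint count cannot exceed the count over the tetrad stage, which was 5 without tetrad LTMH replicate 1. It thus rests on single libraries too, and it is not given for the fits without them. Every free microspore LTMH library exceeded all 8 other LTMH libraries for 7 genes (3.5%, against 0.406% of all tested genes).

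The group whose second CT stage was the tetrad had 10 of its 123 genes called higher at the free microspore stage over the tetrad in LTMH (8.13%, against 8.95% of all tested genes), and 68 higher over the polarized microspore stage (55.3%, against 13.9%). Its median LTMH levels were 21.2, 28.2 and 8.91 FPKM in stage order. The group whose second CT stage was the polarized microspore had 27 of its 77 genes called over the tetrad (35.1%) and 9 over the polarized microspore stage (11.7%). Its median LTMH levels were 16.6, 47.4 and 24.8 FPKM. Over the stage that came second in CT, the share called higher was thus slightly below that of all genes in both groups. The median log2 differences there were 0.76 in the group of 123 genes and 0.97 in that of 77. Over all tested genes they were 0.03 and 0.02. In these comparisons 0 genes of either group were called lower, against 12.4% and 12.1% of all tested genes. The order of the outer stages in CT was kept in the LTMH medians. The difference between these groups was not tested, and the grouping rests in part on tetrad CT replicate 4.

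The highest LTMH scores were those of a pair of genes, and neither was called in an LTMH comparison. Solyc08g065725.1 (LTMH score 1.71, CT score 1.52) was the only one of the 200 genes whose LTMH score was not below its CT score. Its free microspore LTMH libraries lay at 20.2, 24.3, 15.2 and 86.9 FPKM. The tetrad LTMH libraries lay at 9.59, 7.26, 13.2 and 9.46, and the polarized microspore ones at 35.9, 0.319, 0.304 and 5.68 FPKM. The stages overlapped through polarized microspore replicate 1, and 1 library carried the high mean. With a recovered length of 171 bases it had 455 reads over the 4 free microspore LTMH libraries. Its log2 difference was 1.84 ± 1.10 SE from the tetrad stage (edgeR adjusted p = 0.243) and 1.71 ± 1.08 SE from the polarized microspore stage (edgeR adjusted p = 0.261).

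Solyc07g063400.3 (LTMH score 1.69, CT score 3.17) had free microspore CT values of 24.5, 67.2, 43.9 and 74.5 FPKM, all above its tetrad CT values of 1.27, 0.944, 0.124 and 5.04. In LTMH its tetrad libraries were split, with 0.0877 and 0.474 FPKM in replicates 1 and 2 and 14.9 and 21.6 in replicates 3 and 4. Its free microspore LTMH libraries, at 59.4, 71.5, 23.96 and 8.82 FPKM, overlapped them through replicate 4. The log2 difference between these stages was 2.20 ± 1.05 SE (edgeR adjusted p = 0.140).

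The lowest LTMH scores belonged to Solyc02g080110.3 (-0.48) and Solyc02g080870.2 (-0.35), whose tetrad LTMH means were above their free microspore LTMH means. Solyc02g080110.3 had 19.5, 7.07, 33.3 and 25.0 FPKM in tetrad LTMH and 17.3, 22.4, 10.7 and 9.15 in free microspore LTMH. In CT its tetrad libraries had 13.9, 10.1, 3.86 and 5.97 FPKM and its free microspore libraries 10.7, 18.7, 18.2 and 25.4. The stages overlapped at both temperatures. Its heat change at the tetrad stage was 1.16 ± 0.42 SE on the log2 scale and did not pass the threshold (edgeR adjusted p = 0.0584). Solyc02g080870.2 ranged from 11.0 to 55.4 FPKM in tetrad LTMH and from 16.9 to 38.1 in free microspore LTMH, a log2 difference of -0.35 ± 0.57 SE (edgeR adjusted p = 0.706).

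In heat the median level of the 200 genes was close to that in CT at the peak stage and higher on both sides of it. The medians of the gene means were 19.9, 39.2 and 12.7 FPKM in tetrad, free microspore and polarized microspore LTMH. In CT they had been 9.75, 39.4 and 5.62. The heat comparisons share the CT libraries with the choice of the genes. Choosing genes high at the free microspore stage and low beside it in CT pulls the heat change down at the peak and up at the outer stages. The counts below are therefore descriptions, and nothing is read from them about the 200 genes as a set.

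At the tetrad stage the median log2 heat change of the 200 genes was 0.77 (quartiles 0.33 and 1.23), against -0.01 over all tested genes, and 181 genes had a positive value. At least 2-fold higher values were seen for 76 genes and at least 2-fold lower for 2. Only 7 genes (3.5%) were called higher and 0 lower, however, against 8.23% of all tested genes called higher and 12.9% called lower (edgeR, adjusted p below 0.05). At an unadjusted p below 0.05, 31 were higher and 0 lower (3177 and 4258 of the 21429 tested genes). DESeq2 called 19 higher and 1 lower (of all genes 9.88% higher and 13.6% lower), and limma on log2(FPKM + 1) 25 higher and 0 lower (of all genes 20.4% and 8.19%). The 7 called genes changed by 0.86 to 3.41 on the log2 scale. Every LTMH library was above every CT library for 4 genes (2%, against 18.8% of all tested genes) and below for 0 (against 7.64%).

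Single libraries moved these values, tetrad CT replicate 4 by the most. Without it the median change was 1.65 and 73 genes (36.5%) were called higher, against 8% of all genes tested in that fit. Without tetrad LTMH replicate 4, the library of that group with the highest level of the 200 genes, the median was 0.53 and 0 genes were called (against 5.74% of all genes higher). The count was 2 without tetrad CT replicate 2, 1 without CT replicate 3, 14 without LTMH replicate 1 and 12 without LTMH replicate 2, where 5.87%, 6%, 7.15% and 8.12% of all genes were called higher. The median of log2(FPKM + 1) over the 200 genes was 3.68, 3.61, 3.98 and 4.86 in tetrad LTMH replicates 1 to 4, all above tetrad CT replicates 1 to 3 and, but for replicate 4, below tetrad CT replicate 4. The tetrad LTMH libraries lay at developmental positions of -0.221, -0.271, -0.214 and -0.0822. All were nearer than any tetrad CT library to the free microspore CT mean on the line from that mean to the polarized microspore. Their part in the heat change was not tested. Under upper-quartile scaling 12.3% of all genes were called higher and 9.84% lower, with 9 of the 200 genes higher and 0 lower.

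At the free microspore stage the median log2 heat change was -0.29 (quartiles -0.52 and 0.03), against -0.02 over all tested genes, and 149 genes had a negative value. Of the 200 genes 18 were at least 2-fold lower. The test called 1 gene higher and 5 lower (3% in all, against 4.21% of all tested genes called higher and 4.61% lower). The 5 lower genes changed by -1.90 to -4.17, and all 5 ranked among the first 100 by score. Every LTMH library was below every CT library for 7 genes (3.5%, against 3.8%) and above for 0 (against 9.17%). Without free microspore CT replicate 4 the calls were 1 higher and 2 lower (1.5% in all, against 3.2% and 3.66% of all genes). Without LTMH replicate 3 they were also 1 and 2 (1.5% in all, against 3.01% and 2.81%). Without LTMH replicate 4 they were 0 and 2 (1% in all, against 3.26% and 2.65%). Leaving out 1 library at a time kept the median between -0.41 and -0.11. The value nearest 0 came without LTMH replicate 3. Under upper-quartile scaling 5.06% of all genes were called higher and 3.54% lower, with 1 and 5 of the 200 genes.

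At the polarized microspore stage the median log2 heat change was 0.66 (quartiles 0.23 and 1.55), against 0.00 over all tested genes, with 173 positive values and 74 genes at least 2-fold higher. The test called 16 genes (8%) higher and 0 lower, against 8.32% of all tested genes higher and 10.7% lower. At an unadjusted p below 0.05, 46 were higher and 1 lower (3157 and 3646 of the 21429 tested genes). DESeq2 called 37 higher (18.5%, against 9.87% of all genes) and 0 lower (against 12.1%). In limma 10 were called higher (5%, against 7.76%) and 0 lower (against 9.4%). For calls of higher level, these tools thus put the 200 genes on opposite sides of the share of all genes. The called genes changed by 0.71 to 4.85 with a median of 3.19. Every LTMH library was above every CT library for 32 genes (16%, against 12.9%) and below for 0 (against 12.2%).

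The polarized microspore LTMH libraries had medians of log2(FPKM + 1) of 4.08, 3.52, 2.83 and 4.01 over the 200 genes. Replicate 3 was the lowest of its group for 166 genes and lay below polarized microspore CT replicates 1 and 2. The count of 16 genes became 5 and 8 without LTMH replicates 1 and 4, and 7, 6 and 9 without CT replicates 1, 3 and 4. In these 5 fits 2.5% to 4.5% of the 200 genes and 5.66% to 8.38% of all genes were called higher. The count was 11 (5.5%, against 6.53% of all genes) without CT replicate 2. Without LTMH replicates 2 and 3 it was 13 (6.5%, against 6.05%) and 23 (11.5%, against 6.66%). The median change stayed between 0.46 and 0.85. On the axis from the tetrad (0) to the free microspore (1) CT mean, over 2805 genes outside the 200, the LTMH libraries lay at 1.34, 1.38, 1.34 and 1.40 and the CT libraries at 1.59, 1.46, 1.54 and 1.53. All 4 LTMH libraries thus lay nearer to the free microspore CT mean on this axis than any CT library, though outside the span between its ends. The part of this in the heat change was not tested.

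The heat changes of the outer stages differed between the groups defined by the second CT stage. For the 123 genes with the tetrad second, the medians were 0.62, -0.17 and 1.01 at the tetrad, free and polarized microspore stage. For the 77 genes with the polarized microspore second they were 0.91, -0.31 and 0.33. In each group the larger median was at the stage that had been lowest in CT by median level, a stage that the grouping itself used, and the difference was not tested. Tetrad CT replicate 4 entered both the grouping and the tetrad heat change.

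Lists chosen in other ways gave medians of the same signs. The first 100 genes by score had medians of 0.81, -0.30 and 1.11 in stage order, and the first 400 had 0.45, -0.24 and 0.34. When the rule was applied to LTMH means, 200 genes were chosen that shared 130 with those described, and their median heat changes were 0.60, -0.14 and 0.47. In that list 11 genes were called higher and 3 lower in tetrad anthers (5.5% and 1.5%, against 8.23% and 12.9% of all tested genes). In free microspore anthers 3 and 2 were called (1.5% and 1%, against 4.21% and 4.61%). In polarized microspore anthers 19 and 5 were called (9.5% and 2.5%, against 8.32% and 10.7%). When the rule was applied to the mean of both temperatures the medians were 0.64, -0.26 and 0.48, and 168 of the 200 genes were shared. The lists that use LTMH were added after the data were seen, and they share libraries and most genes with the 200.

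**Figure D4:**
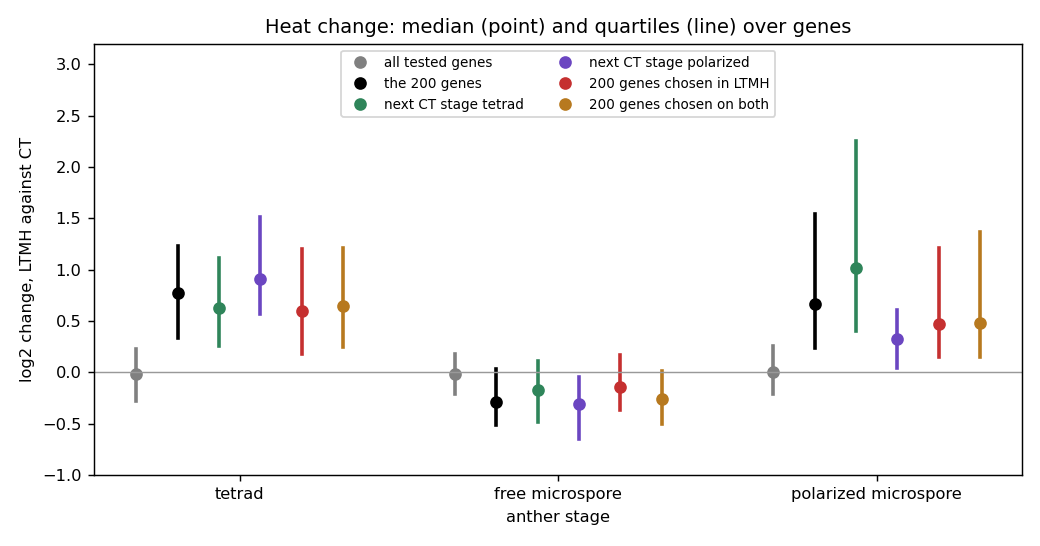
Median (point) and quartiles (line) of the log2 change, LTMH against CT, at each stage over all 21429 tested genes, the 200 genes, their groups by second CT stage, and 200 genes chosen in LTMH or on both temperatures. Medians of the 200 genes lie at 0.77, -0.29 and 0.66, those of the list chosen in LTMH at 0.60, -0.14 and 0.47, and those of all tested genes near 0.

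Across the stages, 24 of the 200 genes (12%) were called for heat at some stage and 176 at none, against 35.1% of all tested genes called at some stage. The heat effect differed between the polarized microspore and the tetrad stage for 1 gene (0.5%), with the higher effect at the polarized microspore stage, against 2.71% of all tested genes in that direction, 1.38% in the other and 4.09% in all. The median difference was 0.07. The interaction tests that involve the free microspore stage called 0 of the 200 genes and 0 of all tested genes in edgeR, the only tool run for them here. At an unadjusted p below 0.05, 18 of the 200 had a lower heat effect at the free microspore stage over the tetrad (828 of the 21429 tested genes did), and 29 a higher one at the polarized microspore stage over the free microspore (911 of the 21429). The median differences were -1.02 for free microspore minus tetrad and 0.83 for polarized minus free microspore. They share the CT libraries that chose the genes and are given as a description.

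One gene was called higher in LTMH at all 3 stages. Solyc04g072860.3 had 11.1, 10.4, 9.40 and 12.7 FPKM in tetrad CT against 17.6, 18.4, 20.3 and 34.7 in tetrad LTMH. In the free microspore groups it had 22.1, 24.1, 17.8 and 28.1 FPKM in CT, and the heat libraries lay at 47.9, 43.3, 26.8 and 52.3. At the polarized microspore stage it had 12.7, 14.5, 9.41 and 7.67 FPKM in CT and 19.3, 23.8, 17.3 and 32.1 in LTMH. The groups overlapped at the free microspore stage alone, where LTMH replicate 3 was below CT replicate 4. The log2 changes were 0.89 ± 0.24 SE, 0.82 ± 0.23 SE and 1.05 ± 0.24 SE in stage order (edgeR adjusted p = 0.0111, 0.0317 and 0.00397). The call at the tetrad stage was lost without tetrad LTMH replicate 4 (0.66, edgeR adjusted p = 0.0572). That at the free microspore stage was lost without any one of CT replicates 1, 2 and 3 (0.80, 0.85 and 0.72) or LTMH replicates 1, 2 and 4 (0.74, 0.80 and 0.76), and where the fit held just the libraries compared (0.83). Within LTMH the gene was called higher at the free microspore stage over the tetrad (0.91 ± 0.23 SE, edgeR adjusted p = 0.00966) and over the polarized microspore stage (0.89 ± 0.23 SE, edgeR adjusted p = 0.00856). The call over the tetrad was lost where the fit held just the libraries compared (0.89, edgeR adjusted p = 0.0512).

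The largest falls called at the peak stage with no overlap of groups were those of 2 genes. Solyc10g083580.2 (rank 23) had 13.9, 9.36, 30.9 and 40.9 FPKM in free microspore CT and 1.88, 1.03, 1.73 and 0.815 in free microspore LTMH. The groups were far apart, and its log2 change was -4.17 ± 0.67 SE (edgeR adjusted p = 0.000702). At the polarized microspore stage it had 3.80, 9.24, 0.953 and 1.69 FPKM in CT and 0.938, 1.63, 1.21 and 2.15 in LTMH, and the groups overlapped. In LTMH its free and polarized microspore levels differed by -0.09 ± 0.71 SE on the log2 scale (edgeR adjusted p = 0.940), while the CT means had been 23.8 and 3.92 FPKM. Its LTMH score was -0.07 after a CT score of 2.33.

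Solyc08g080650.3 (rank 14) fell from 9.004, 16.6, 17.7 and 56.2 FPKM in free microspore CT to 5.75, 3.94, 1.09 and 0.884 in LTMH, a log2 change of -3.11 ± 0.77 SE (edgeR adjusted p = 0.0155). The groups did not overlap, but CT replicate 4 held most of the CT level. The call was lost without CT replicate 4 (-2.35, edgeR adjusted p = 0.0664), without LTMH replicate 3 (-2.84, edgeR adjusted p = 0.0523), without LTMH replicate 4 (-2.79, edgeR adjusted p = 0.0522) and where the fit held just the 8 libraries compared (-3.11, edgeR adjusted p = 0.0929). Solyc08g080640.2, the neighbouring identifier and also one of the 200 (picked out after its values were seen), had a free microspore heat change of -2.49.

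The largest rise after the peak was that of Solyc05g007540.2 (rank 56). Its polarized microspore CT libraries lay at 0.123, 0.390, 0.0788 and 1.26 FPKM, 28 reads in all, and its LTMH libraries at 7.41, 11.3, 13.97 and 23.7 FPKM, 880 reads in all. The groups did not overlap, and the log2 change was 4.85 ± 0.79 SE (edgeR adjusted p = 0.000327). In the free microspore groups it had 12.9, 13.5, 8.65 and 8.31 FPKM in CT and 8.19, 23.9, 6.65 and 22.7 in LTMH, so in LTMH the free and polarized microspore levels were side by side (0.13 ± 0.59 SE, edgeR adjusted p = 0.899). At the tetrad stage its heat change was 0.62 ± 0.66 SE (edgeR adjusted p = 0.534). It was the 1 gene of the 200 whose heat effect differed between the polarized microspore and the tetrad stage, by 4.23 ± 1.04 SE on the log2 scale (edgeR adjusted p = 0.0271). It no longer passed the threshold without tetrad CT replicate 4 (3.38), tetrad LTMH replicate 4 (4.27), polarized microspore CT replicates 1, 2 or 3 (3.91, 4.14 and 3.92) or polarized microspore LTMH replicate 4 (3.87).

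Its companion by size of rise, Solyc12g042520.2 (rank 25), was a low gene. It had 0.0786, 0.0830, 0 and 0.127 FPKM in polarized microspore CT, 7 reads in all, and 4.36, 0.602, 0.492 and 2.26 FPKM in LTMH, 206 reads in all. The fitted log2 change of 4.60 ± 1.48 SE (edgeR adjusted p = 0.0357) was not held without any of the 4 CT libraries (4.26 to 4.97) or without LTMH replicate 1 (3.77) or replicate 4 (4.53). It was also lost with no filter on low counts (4.60) and in limma on log2(FPKM + 1) (1.25). In free microspore CT this gene had 3.45, 13.9, 1.34 and 4.87 FPKM and in LTMH 12.6, 11.1, 2.61 and 3.58, and these groups overlapped.

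The top gene by score also rose after the peak. Solyc06g063060.3 had 12.0, 11.4, 5.25 and 19.7 FPKM in polarized microspore LTMH, all above its CT libraries (log2 change 2.16 ± 0.75 SE, edgeR adjusted p = 0.0480). The call was lost without CT replicates 1, 2 or 3 (1.99, 2.20 and 1.97), without LTMH replicates 1, 2 or 4 (2.16, 2.18 and 1.84) and with no filter on low counts (2.16). Its tetrad LTMH libraries, at 1.80, 7.53, 14.5 and 17.1 FPKM, overlapped tetrad CT through replicate 4 of CT (1.97 ± 0.76 SE, edgeR adjusted p = 0.0713). At the peak its LTMH libraries had 50.1, 56.3, 26.7 and 24.3 FPKM, within the range of CT (-0.25 ± 0.64 SE, edgeR adjusted p = 0.866). Within LTMH its free microspore level was called higher over the tetrad stage (1.97 ± 0.67 SE, edgeR adjusted p = 0.0433). That call was lost without tetrad LTMH replicates 1, 2 or 3 (1.62, 1.86 and 2.22), without free microspore LTMH replicates 1 or 2 (1.82 and 1.73), with no filter (1.98) and in the fit of just these groups (1.96). Against the polarized microspore stage the difference was 1.73 ± 0.67 SE (edgeR adjusted p = 0.0621).

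The gene at the second rank, Solyc10g008330.3, had 12.4, 9.06, 2.02 and 5.71 FPKM in free microspore LTMH, overlapping its CT libraries (-1.10 ± 0.77 SE, edgeR adjusted p = 0.415). Within LTMH its free microspore level was called higher over the tetrad stage by 2.94 ± 0.90 SE (edgeR adjusted p = 0.0263). The call was lost without tetrad LTMH replicates 1, 2 or 3 (2.64, 2.63 and 3.29) or free microspore LTMH replicates 1 or 2 (2.53 and 2.81). The highest gene by level, Solyc02g078330.3, had 10675, 12543, 7153 and 10287 FPKM in free microspore LTMH and showed no call at any stage for heat, with log2 changes of 0.52 ± 0.58 SE, -0.27 ± 0.58 SE and 0.09 ± 0.58 SE (edgeR adjusted p = 0.562, 0.833 and 0.940). In LTMH it was called higher at the free microspore stage over the polarized (2.31 ± 0.61 SE, edgeR adjusted p = 0.00898), a call kept in all 16 alternatives run.

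**Figure D5:**
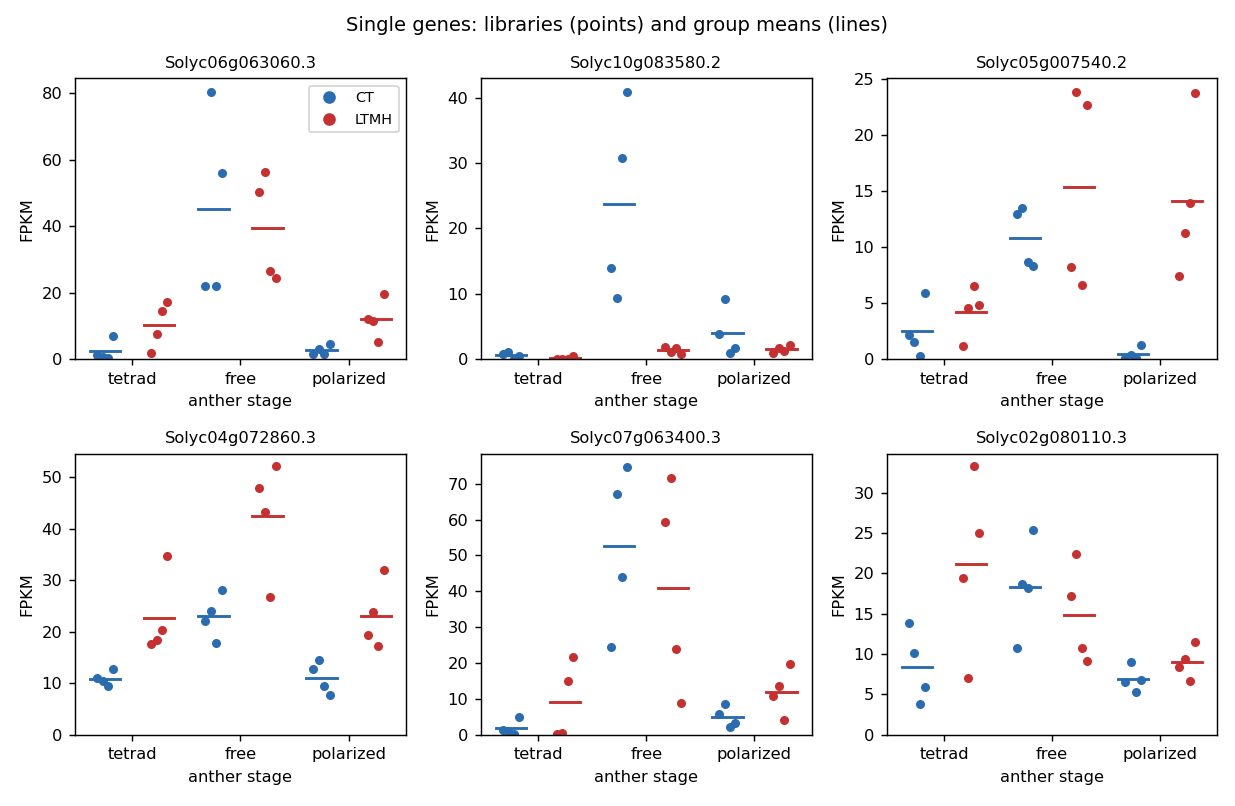
FPKM of 6 of the 200 genes in each library (points) with group means (lines), by anther stage, CT in blue and LTMH in red; each panel has its own linear axis from 0. Solyc10g083580.2 falls at the free microspore stage (23.8 to 1.36 FPKM), Solyc05g007540.2 rises at the polarized microspore stage (0.462 to 14.1 FPKM), and Solyc04g072860.3 is higher in LTMH at all 3 stages.

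Some properties of the genes did not enter the choice. Gene length, recovered from counts and FPKM, had a median of 1489 bases (quartiles 853 and 2206) over the 200 genes and 1615 bases (quartiles 1020 and 2442) over all genes with at least 5 FPKM. By the number in the identifier the genes were spread over all 12 chromosomes, from 7 on chromosome 11 to 28 on chromosome 1, and 4 had no chromosome. Chromosome 10 held 21 genes (10.5%, against 6.74% of genes with at least 5 FPKM) and chromosome 11 held 3.5% (against 6.71%). No test was made of these shares.

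Members of the list were often next to each other in the order of identifiers. For 26 of the 200 genes (13%) the next or previous identifier also belonged to the list, against 171 of the 13118 other genes with at least 5 FPKM (1.30%). They formed 12 runs, 10 of 2 genes and 2 of 3. In 7 of the runs all genes had their highest free microspore CT value in the same library. Neighbouring identifiers can be near-identical copies or overlapping genes, between which reads may not have been told apart, and their part was not tested.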

How the data were processed

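For the 24 libraries the authors deposited read counts per gene, not normalized, and FPKM values. TopHat2 2.0.12 and HTSeq 0.6.1 are named in the submitters' processing notes. The build of the genome is not given in the sources used here. Levels, scores and the choice of the 200 genes used the deposited FPKM. A whole-base gene length (tolerance 0.01 base) could be recovered for 29041 genes.

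In edgeR 4.0.16 under R 4.3.3, 1 fit of the deposited counts held the 6 groups of 4 libraries, with filterByExpr at a minimum count of 10, TMM scaling and robust quasi-likelihood dispersion. A gene was called at a Benjamini-Hochberg adjusted p below 0.05, over 21429 genes. Log2 changes come from this fit, and their standard errors from its F statistic. For developmental position, log2 CPM (prior count 2) was projected onto the line joining the means of the other 2 CT stages, over genes called there and changed at least 2-fold. DESeq2 1.42.0, limma 3.58.1 on log2(FPKM + 1), other scalings, filters and lists, a replicate block and leaving out libraries were alternatives. The fits were tested on simulated data.

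Genes were printed by identifier under this rule: the 2 highest scores, up to 2 called genes per direction and heat comparison with the largest change, a mean of at least 1 CPM and no overlap, and the 2 highest and 2 lowest LTMH scores. This named 11 genes; Solyc02g078330.3 and Solyc08g080640.2 were added after their values were seen. Of the called genes 1, 5 and 11 met it at the 3 stages. The 200 genes and all lists were chosen with earlier results of these data known. Marker lists and the search for genes of like pattern need gene names and were not used here.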

Additional observations from a re-analysis of the deposited data

Results flagged for a closer look

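The level and share of the 200 genes and the 11 genes printed by rule, in each group, gave 78 sets of 4 libraries. In 9 sets 1 library lay further from the rest than Dixon's limit at the 95% level. A rate of about 1 in 20 would hold for independent sets, but these sets share libraries and genes. The CT sets also hold values that chose the genes. The 9 flags are therefore a description and not a test. Of these, 5 came from replicate 4 of a tetrad group. In tetrad CT replicate 4 the 200 genes took 4.08% of summed FPKM, Solyc06g063060.3 stood at 7.04 FPKM, Solyc12g042520.2 at 1.48 and Solyc08g065725.1 at 22.3. In tetrad LTMH replicate 4 Solyc04g072860.3 stood at 34.7 FPKM. Free microspore CT replicate 3 was low, with 4.41% of summed FPKM in the 200 genes. Solyc10g008330.3 stood high in polarized microspore CT replicate 4 (2.57 FPKM). Solyc08g065725.1, a gene of 171 bases, stood high in free microspore LTMH replicate 4 (86.9 FPKM) and in polarized microspore LTMH replicate 1 (35.9 FPKM).

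For 1 of the 200 genes, Solyc05g007540.2, the effect of heat differed between the polarized microspore and the tetrad stage in the test of the difference itself.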

How the results depend on the processing

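Values here are the percent of the 200 genes called, unless given otherwise. For heat at the tetrad stage the 3.5% became 5.5% with the replicate block, 1% with only the libraries compared, 12.5% in limma, 10% in DESeq2, 2% of the top 100, 5.5% of the top 400 and 7% of the list chosen in LTMH, and 0% to 36.5% without single libraries. Of all genes 21.2% were called in either direction in the main fit. That share was 21.9% with the replicate block, 17% with only the libraries compared, 28.6% in limma and 23.5% in DESeq2. Without single libraries it was 13.7% to 20.8%. In limma the median of all genes at this stage lay at 0.11. At the free microspore stage the 3% became 1% with only the libraries compared, 1.5% without CT replicate 4 and LTMH replicate 1 together, 5% of the top 100, 5% of the top 400, and 1% to 2.5% without single libraries. The share of all genes called in either direction was 8.82% in the main fit and 2.52% with only the libraries compared. It was 5.3% without those libraries together and 5.83% to 8.25% without single libraries. At the polarized microspore stage the 8% became 4.5% with no filter, 15.5% with only the libraries compared, 5% in limma, 18.5% in DESeq2, and 2.5% to 11.5% without single libraries. Of all genes 8.32% were called higher there in the main fit. In the order of these alternatives that share was 5.57%, 9.93%, 7.76%, 9.87% and 5.66% to 8.38%. Within LTMH the 18.5% higher at the free microspore stage over the tetrad became 12% with no filter, 10% with only the libraries compared, 29.5% in limma, and 2.5% to 31% without single libraries. Of all genes 8.95% were called higher in the main fit, and 5.4%, 6.37%, 8.52% and 3.66% to 9.24% in these alternatives. The 38.5% higher over the polarized microspore stage ranged from 16% to 41.5% without single libraries and kept within 1.5 times under every other alternative run. Of all genes 13.9% were called higher in that comparison, and 9.09% to 14.1% without single libraries. The 0.5% with a heat effect that differed between the polarized microspore and tetrad stages became 2% in DESeq2 and 1% of the top 100, and 0% to 1.5% without single libraries. Of all genes 4.09% were called for that difference in the main fit, 8.04% in DESeq2 and 2% to 5.29% without single libraries. The list chosen in LTMH shared 130 of the 200 genes; lists without single CT libraries shared 165 to 195. The 190 genes with their highest LTMH mean at the free microspore stage ranged from 171 to 192 without single libraries. The 5 genes printed for a heat call kept their sign under every alternative run. Without tetrad CT replicate 4 the differing heat effect was called for 3 genes, all with the lower effect at the polarized microspore stage. These were 1.5% of the 200 genes, against 1.39% of all genes called in that direction in that fit. Solyc12g042520.2 lost its polarized microspore call under 8 alternatives and Solyc08g080650.3 its free microspore call under 4. Solyc04g072860.3 lost its tetrad call under 1 and its free microspore call under 8.

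The labels number the replicates of each group alike, but same-numbered CT and LTMH libraries of a stage did not all deviate together (correlations from -0.38 to 0.351), so they were not taken as pairs. Across stages this was not tested. The highest correlation of a CT with an LTMH library of the same stage was 0.63. It lay between free microspore CT replicate 4 and LTMH replicate 1, the libraries left out together in a fit above. The median level of the 200 genes was highest in replicate 4 of both tetrad groups and lowest in replicate 3 of both free and both polarized microspore groups. In polarized microspore CT, however, replicates 3 and 4 had close medians of log2(FPKM + 1), 2.53 and 2.54. There replicate 4 had the lower share of summed FPKM (0.636%, against 0.794%) and was lowest for 101 genes, against 58 for replicate 3. With the replicate block the other counts were 3%, 7%, 19%, 47.5% and 0.5% in the order above. In that fit 9.42% of all genes were called in either direction at the free microspore stage. Of all genes 8.54%, 9.68% and 14.2% were called higher in the next 3 comparisons, and 4.83% had a differing heat effect. These genes varied more between replicates than most, which limits what 4 libraries per group can show, and genes with few reads, such as Solyc12g042520.2, rest on single libraries.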
